A study of Mus musculus with 6 samples.

Results

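Cardiac jelly is the gelatinous extracellular matrix that separates the myocardium from the endocardium in the early heart tube. Its bulk is hyaluronan, a long sugar polymer made at the cell membrane, to which the chondroitin sulphate proteoglycan versican binds with the help of a link protein. The matrix is laid down before trabeculae form, and secreted ADAMTS proteases cleave versican as the jelly is remodelled. The set described here holds 10 genes of that matrix, taken by name from the 23284 genes of the deposited expression table: the hyaluronan synthases Has1 and Has2, the precursor enzyme gene Ugdh, the versican gene Vcan, the link protein gene Hapln1, the receptor gene Cd44, the protease genes Adamts1 and Adamts9, and the glycoprotein genes Fn1 and Tnc. All 10 were found, each in 1 row.

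RNA was taken from heart ventricles at E9.5. The 3 WT embryos and the 3 KD embryos were tetraploid chimeras made from ES cells derived from C57BL/6J mice (C57BL/6 in the sample labels), a procedure in which the embryo proper derives from the injected cells. KD embryos had the genotype Tbx5ua -/-, in which tandem polyadenylation signals end the transcription of this long non-coding RNA early on both alleles, and WT embryos came from wildtype ES cells. The edited ES cells were grown from single colonies, and which of the KD lines gave the sequenced embryos is not given in the sources used here. The comparison asks how the ventricular transcriptome of KD embryos differs from that of WT embryos.

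The table gives 1 expression value for WT and 1 for KD, in FPKM (fragments mapped to a gene, scaled to its transcript length and to the size of the library), each made by the authors from the 3 embryos of the group. It holds no value for a single embryo, so no SD, interval or test could be computed here. The authors' own test of each gene was not used, so no difference here is set against the spread between embryos. Depth per library is unknown. A gene was counted as measured when it reached 1 FPKM in either group and was above 0 in both, which 11548 genes did, and a ratio of at least 1.5-fold between the groups was used as a mark of size, not of significance. Over the whole table the sum of FPKM was 859452 for WT against 877889 for KD. The median log2 ratio of KD over WT was 0.00 over the measured genes. Heart muscle was present by the myocardial markers, of which Tnnt2 had 1842 FPKM in WT against 1807 in KD. Whether the tissue was ventricle alone was not checked.

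Most of the jelly genes had a lower value in KD than in WT, and nearly all by a small ratio. Of the 9 genes of the set that were measured, 8 were lower in KD and 1, Adamts1, was higher. Over all measured genes 49.1% were lower in KD. Only Tnc passed 1.5-fold among the 9 measured genes, and it was lower in KD. Over all measured genes 7.72% passed that ratio in either direction, 3.10% on the lower side in KD and 4.62% on the higher side. Tnc and Adamts9 reached 1 FPKM only in WT, the group in which they were higher, so the floor itself favoured a lower KD value for them. Of the 7 genes at 1 FPKM or more in both groups, 6 were lower in KD and 0 passed 1.5-fold, where 49.5% and 5.01% of all genes that met this stricter floor did. The median log2 ratio of the 9 genes was -0.28 and their range ran from -1.66 to 0.22. Summed over the set, the level was 264 FPKM in WT against 234 in KD, 88.7% of the WT sum.

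**Figure D1:**
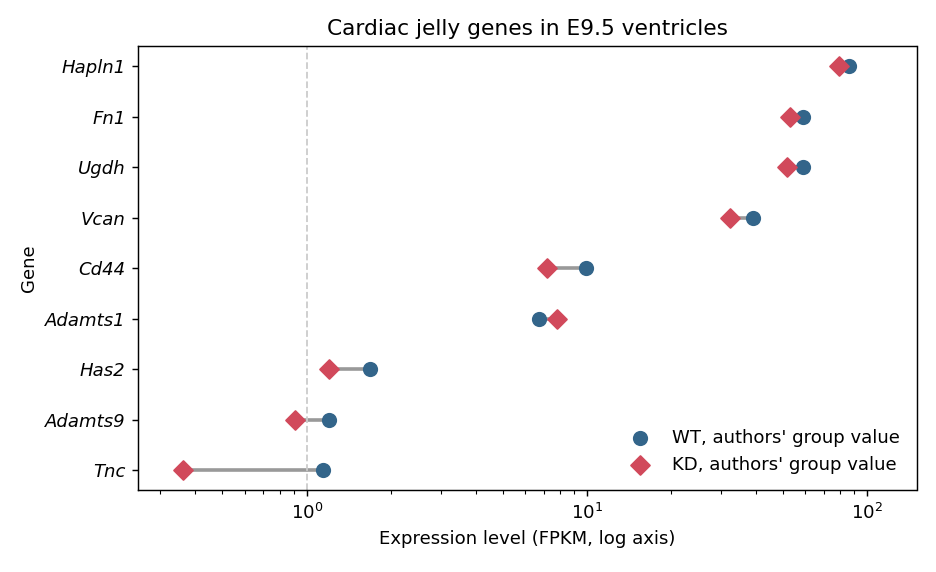
Expression levels of the 9 measured cardiac jelly genes in E9.5 ventricles, in FPKM on a log axis, with a circle for the WT group value and a diamond for the KD group value joined by a line. The dashed line marks 1 FPKM, and no error bars are drawn since the table gives 1 value per group. The diamond lies left of the circle for every gene shown except Adamts1, and the gap is widest for Tnc, from 1.14 to 0.362 FPKM.

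FPKM is scaled to transcript length, so levels of different genes are set side by side here. How evenly the amplified Smart-Seq2 libraries cover long and short transcripts was not tested, which limits every comparison of levels between genes in this report. The 4 most abundant genes of the set, Hapln1, Fn1, Ugdh and Vcan, made up 92.2% of its summed level in WT and 92.5% in KD. The order from the highest to the lowest level was Hapln1, Fn1, Ugdh, Vcan, Cd44, Adamts1, Has2, Adamts9, Tnc and Has1 in WT. The order was the same in KD, except that Adamts1 stood above Cd44. With 1 value per group, whether neighbours in this order differ beyond the spread between embryos cannot be said.

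Tnc encodes tenascin-C, a large glycoprotein of embryonic matrix that is found where tissue is being remodelled. Its level was 1.14 FPKM in WT against 0.362 in KD, 3.16-fold lower, a log2 ratio of -1.66. With a pseudocount of 1 FPKM the log2 ratio was -0.65, still past 1.5-fold. Both values lie at the low end of the table, where ratios scatter widely. Among the 963 genes with a mean of 0.5 to 1 FPKM over the groups, 15.7% were at least 1.5-fold lower in KD and 2.08% were at least 3-fold lower. Among all measured genes 0.355% were at least 3-fold lower. The 3-fold mark was chosen after the value of Tnc had been seen. The table places Tnc on chromosome 4 from 63959785 to 64047015 of mm10, and GENCODE M21 gives it the minus strand.

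The other end of the range was Adamts1, a secreted protease that cleaves versican. Its level was 6.72 FPKM in WT against 7.84 in KD, a log2 ratio of 0.22. It lies on chromosome 16 from 85793828 to 85803115, also on the minus strand. The 250 bases upstream of the annotated starts of these genes, the lowest and the highest ratio of the set, are shown from RefSeq on GRCm38.p6, 5′ to 3′ on the strand of the gene, with the letters TATAAA in capitals.
Tnc, chr4:64047016-64047265, minus strand: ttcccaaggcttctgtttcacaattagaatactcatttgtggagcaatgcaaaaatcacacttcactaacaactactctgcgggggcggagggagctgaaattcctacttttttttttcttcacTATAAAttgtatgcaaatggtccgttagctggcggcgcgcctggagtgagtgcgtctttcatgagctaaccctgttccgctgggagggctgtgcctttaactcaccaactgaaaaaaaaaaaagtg
Adamts1, chr16:85803114-85803363, minus strand: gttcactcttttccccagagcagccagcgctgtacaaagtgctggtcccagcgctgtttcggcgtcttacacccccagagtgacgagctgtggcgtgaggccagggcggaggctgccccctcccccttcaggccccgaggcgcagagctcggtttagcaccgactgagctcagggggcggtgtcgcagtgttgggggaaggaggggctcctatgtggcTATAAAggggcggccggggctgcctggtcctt

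The match in Adamts1 lies 32 to 27 bases before the start, and that in Tnc 126 to 121 bases before it. RefSeq gives Tnc a further start 79 bases downstream, from which the same match lies 205 to 200 bases upstream. A TATA box lies close to the start it serves, and the TATAAA match in Tnc does not, so the capitals there mark letters only. The window of the further Tnc start, not printed here, holds the letters tatataag close to that start. The search for TATAAA does not count them, and whether they act as a TATA box was not tested. Such windows were found for 8 of the 10 genes, Has2 and Fn1 having none in the RefSeq table used. They were searched on both strands, allowing no mismatch. The core of the T-box site, AGGTGT, was present in 0 of the 8 genes, against 11.8% of 32851 windows of the same length. The GATA site, searched as AGATAA, was present in Cd44 alone of the 8 genes, against 9.99% of windows. The MCAT site, searched as CATTCC, was present in 0 of them, against 12.6%. TATAAA was present in Tnc and Adamts1 alone of the 8 genes, against 12.4% of windows. No pair of these motifs overlapped in a window printed here. A match is a description of the letters in the window, not of a bound site. For Adamts9 the window describes a start 42093 bases from that of the table, so it may not belong to the transcripts counted here.

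Hyaluronan itself is not measured by RNA-seq, but its synthesis genes are. Has2 encodes the main hyaluronan synthase of the embryonic heart. It had 1.68 FPKM in WT against 1.20 in KD, a log2 ratio of -0.48, or 71.5% of the WT level. Among the 1345 genes with a mean of 1 to 2 FPKM, 18.9% were at least 1.3-fold lower in KD, as Has2 was at 1.40-fold. That mark was also chosen after the values had been seen. Has1, a paralogue, was listed at 0.0080 FPKM in WT and at 0 in KD, and Has3, the remaining synthase gene, at 0.0592 FPKM in WT against 0.00509 in KD, so neither was measured and no ratio is given. Has2 was thus the one synthase gene above 1 FPKM.

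The Has2 value has a neighbour that must be read with it. On chromosome 15 from 56665627 to 56694546 the table lists the antisense long non-coding RNA Has2as (Has2os in GENCODE and RefSeq) at the same locus as Has2. Has2as had 4.16 FPKM in WT against 1.37 in KD, 3.03-fold lower, a log2 ratio of -1.60. It was named after its value had been seen. In WT the antisense RNA stood above Has2, and in KD both lay within 1.20 to 1.37 FPKM. Has2 lies on the minus strand and its antisense partner on the plus strand in GENCODE M21, and in that annotation 182 exonic bases are common to both, 4.30% of the exonic bases of Has2 and 11.2% of those of Has2os. GENCODE places Has2os from 56689944 to 56778399, an interval other than the one the table gives for Has2as, so the overlap of the models the authors counted may differ. The Smart-Seq2 libraries do not mark strand, so reads in the shared bases could belong to either gene. How the authors' estimate divided them was not tested.

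Ugdh encodes UDP-glucose dehydrogenase, which makes the UDP-glucuronic acid used for hyaluronan and for the chondroitin and heparan sulphate chains. Its level was 58.9 FPKM in WT against 51.7 in KD, a log2 ratio of -0.19. It exceeded the level of Has2 35.1-fold in WT and 43.0-fold in KD. In a list of 11 genes for hyaluronan synthesis and its sugar precursors, 9 were measured, 5 higher and 4 lower in KD, with a median log2 ratio of 0.02. Of these 9 genes 1 passed 1.5-fold, Gfpt2, an enzyme gene at the entry of the hexosamine pathway, with 20.3 FPKM in WT against 13.4 in KD, which did not pass with a pseudocount of 1 FPKM. Its paralogue Gfpt1 had the highest ratio of the list, from 3.38 FPKM in WT to 3.83 FPKM in KD. Gpi1, the glycolytic enzyme gene upstream of both, was the most abundant, with 477 FPKM in WT against 493 in KD. In a list of 8 genes of hyaluronan breakdown 5 were measured and 0 passed 1.5-fold. Their most abundant gene was Hyal2, a hyaluronidase, with 61.7 FPKM in WT against 64.5 in KD. The lowest ratio of that list was -0.54 on the log2 scale, for Hyal1, another hyaluronidase, with 1.14 FPKM in WT against 0.787 in KD, a gene that reached 1 FPKM only in WT.

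Versican and its link protein were both abundant and both slightly lower in KD. Vcan, the gene of the large proteoglycan that gives the jelly its swelling chondroitin sulphate chains, had 39.1 FPKM in WT against 32.3 in KD, a log2 ratio of -0.28. Hapln1, whose product fastens versican to hyaluronan, was the most abundant gene of the set, with 86.0 FPKM in WT against 79.3 in KD, a log2 ratio of -0.12. The Hapln1 level was 2.20 times the Vcan level in WT and 2.46 times in KD. The genes are neighbours on chromosome 13. Hapln1 runs from 89540636 to 89611832 on the plus strand and Vcan from 89655310 to 89742512 on the minus strand, so that their 3′ ends face each other across 43477 bases. Versican belongs to a family of hyaluronan-binding proteoglycans whose members each sit beside a link protein gene, and the other pairs were nearly silent apart from Hapln3. Hapln3 had 7.84 FPKM in WT against 6.78 in KD, while its partner Acan, the aggrecan gene, was at 0.0731 FPKM in WT against 0.00548 in KD. Hapln4 was at 0.406 FPKM in WT against 0.0483 in KD and its partner Ncan at 0.0365 FPKM in WT against 0.00798 in KD. Hapln2 was listed at 0 in both groups, and its partner Bcan at 0.00863 FPKM in WT and at 0 in KD.

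The chondroitin sulphate chains that versican carries are built by a separate set of enzymes. Of 19 genes in that list 14 were measured, 9 higher and 5 lower in KD, with a median log2 ratio of 0.08. Of the 14 genes 1 passed 1.5-fold, Csgalnact1, which starts the chain, with 0.895 FPKM in WT against 1.42 in KD, a gene that reached 1 FPKM only in KD. The lowest ratio was that of Chsy1, a chain-extending chondroitin synthase, with 10.5 FPKM in WT against 7.29 in KD, a log2 ratio of -0.53. The most abundant gene was the sulphotransferase gene Chst12, with 18.3 FPKM in WT against 20.6 in KD.

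**Figure D2:**
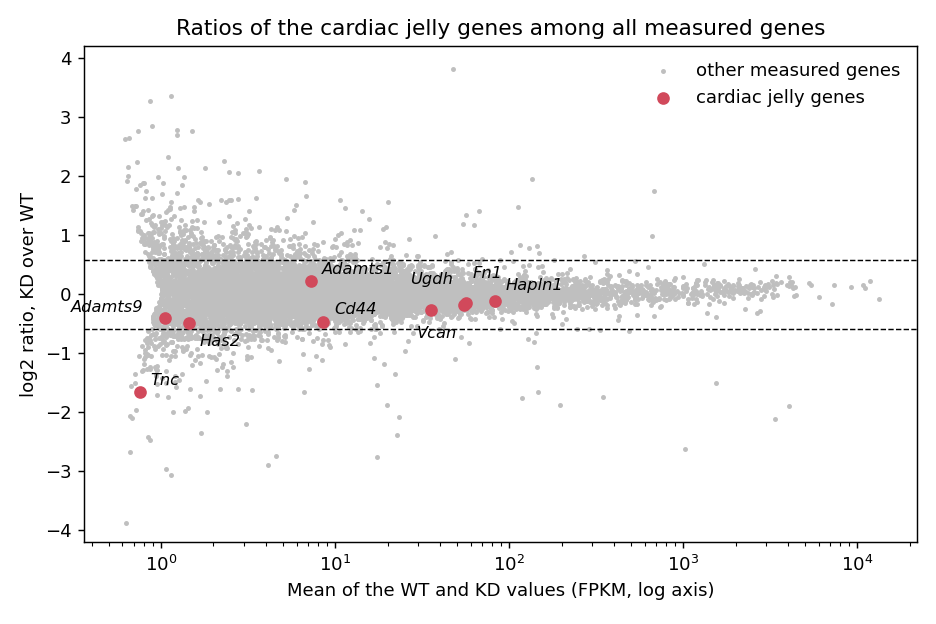
Log2 ratio of KD over WT against the mean of both group values in FPKM (log axis) for the 11548 measured genes, with the 9 cardiac jelly genes in red and dashed lines at 1.5-fold. The axis leaves out 6 genes with larger ratios. Tnc lies among the widely scattered genes of low level, and the other 8 lie between the dashed lines.

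Of the versican-cleaving proteases of the set Adamts1 had a modest level and Adamts9 lay close to the floor of 1 FPKM. Their ratios had opposite signs. Adamts9 had 1.20 FPKM in WT against 0.909 in KD, a log2 ratio of -0.40, while Adamts1, given above, was higher in KD. Among the 1345 genes with a mean of 1 to 2 FPKM, 18.9% were at least 1.3-fold lower in KD, as Adamts9 was at 1.32-fold. Adamts1 stood 5.60-fold above Adamts9 in WT and 8.62-fold above it in KD. The level of Vcan was 5.82 times that of Adamts1 in WT and 4.12 times in KD. Of 7 genes in the clade of ADAMTS proteases that cleave versican 3 were measured and 0 passed 1.5-fold. The third was Adamts15, with 0.966 FPKM in WT against 1.14 in KD. It reached 1 FPKM only in KD and Adamts9 only in WT, so with that floor in both groups Adamts1 was the 1 gene left. The other 4, Adamts4, Adamts5, Adamts8 and Adamts20, stayed under 1 FPKM in both groups. Outside this clade 1 of 12 ADAMTS genes was measured, Adamts10, with 2.26 FPKM in WT against 2.24 in KD.

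Cd44 encodes the main cell surface receptor of hyaluronan. Its level was 9.90 FPKM in WT against 7.17 in KD, a log2 ratio of -0.46, or 72.5% of the WT level. Among the 1968 genes with a mean of 5 to 10 FPKM, 5.59% were at least 1.3-fold lower in KD, as Cd44 was at 1.38-fold. Cd44 had the lowest ratio of the 7 measured genes in a list of 9 hyaluronan receptors and binders. In that list 3 genes passed 1.5-fold, all higher in KD, where 4.62% of all measured genes did so. With a pseudocount of 1 FPKM, or with a floor of 5 FPKM, 0 passed. Lyve1, a receptor known from lymphatic endothelium and macrophages, had 1.73 FPKM in WT against 2.92 in KD. Layn, which encodes the membrane receptor layilin, had 0.918 FPKM in WT against 1.49 in KD. Tnfaip6, which encodes a secreted hyaluronan-binding protein, had 0.525 FPKM in WT against 1.21 in KD. Layn and Tnfaip6 reached 1 FPKM only in KD. The most abundant gene of the list was Hmmr, a mitotic hyaluronan-binding protein, with 24.7 FPKM in WT against 24.0 in KD.

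Fn1 encodes fibronectin, the fibrillar glycoprotein on which the heart fields migrate and which persists in the jelly. It had 59.1 FPKM in WT against 53.2 in KD, a log2 ratio of -0.15. Among 19 genes of fibronectin, the tenascins and other matrix glycoproteins 12 were measured, 5 higher and 7 lower in KD, with a median log2 ratio of -0.15. Besides Tnc, Fbln2 passed 1.5-fold, in the opposite direction. Fbln2 encodes fibulin-2, a versican-binding protein of the cushions, and had 4.96 FPKM in WT against 7.54 in KD. It did not pass with a pseudocount of 1 FPKM or when FPKM values were rescaled to the same sum. The most abundant gene of the list was Sparc, a collagen-binding glycoprotein, with 188 FPKM in WT against 225 in KD. The other tenascin genes, Tnr, Tnn and Tnxb, did not reach 1 FPKM in either group.

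**Figure D3:**
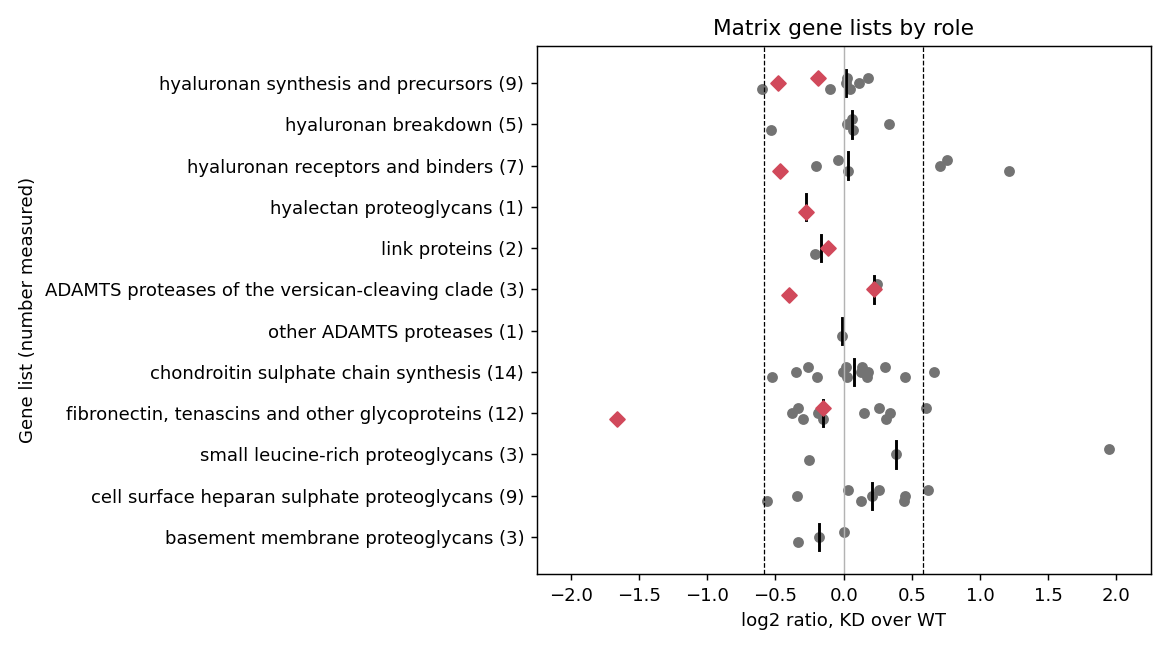
Log2 ratio of KD over WT for the measured genes of 12 matrix gene lists, 1 point per gene, with the cardiac jelly genes as red diamonds, a vertical bar at the median of each list and dashed lines at 1.5-fold. Of 69 points 9 lie past a dashed line, 7 on the higher and 2 on the lower side.

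Over all 12 lists of matrix genes, which include the jelly genes, 9 of 69 measured genes passed 1.5-fold, 7 higher and 2 lower in KD, where 7.72% of all measured genes passed, 4.62% higher and 3.10% lower. The split was 2 higher and 1 lower at 2-fold, 3 higher and 1 lower with a floor of 5 FPKM, 13 higher and 13 lower at the lower of the alternative fold marks, 17 higher and 14 lower with no floor, and 1 of each with a pseudocount of 1 FPKM. With FPKM rescaled to the same sum in both groups the same number split into 6 higher and 3 lower, where 7.54% of all measured genes passed. With 1 FPKM required in both groups 5 of 62 genes passed, 4 higher and 1 lower, where 5.01% of all genes that met this floor did. The genes past 1.5-fold with the pseudocount were Tnc on the lower side and Dcn, the decorin gene, on the higher side, where 3.18% of all measured genes passed.

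Markers of the cells that could contribute this matrix were set beside these values, since in bulk RNA fewer cells of a type and less RNA per cell cannot be told apart. Over all marker lists 12 of 42 measured genes passed 1.5-fold, 10 higher and 2 lower in KD, beside the 7.72% of all measured genes. Of 8 endocardial and endothelial markers, cells that lie on the inner side of the jelly, 0 passed 1.5-fold, and their summed level was 155 FPKM in WT against 170 in KD. Of 8 myocardial markers 0 passed, and their summed level was 32945 FPKM in WT against 34248 in KD. The epicardial list had the highest median ratio of the marker lists, with 6 of 7 markers past 1.5-fold, all higher in KD, and a summed level of 47.5 FPKM in WT against 97.5 in KD. Aldh1a2 and Bnc1 of that list reached 1 FPKM only in KD, and with that floor in both groups 4 of 5 passed. Of 8 measured markers of cushion mesenchyme 4 were past 1.5-fold on the higher side, led by Pdgfra with 0.969 FPKM in WT against 2.78 in KD, a gene that reached 1 FPKM only in KD. In that list 1 was past it on the lower side, Msx1, with 5.60 FPKM in WT against 2.92 in KD. With the floor in both groups 3 of 7 were past it on the higher side and 1 on the lower, with a pseudocount of 1 FPKM 2 of 8 and 1, and with a floor of 5 FPKM 1 of 5 and 1. Of 4 measured markers of the outflow tract and second heart field 1 was past it, Fgf8, with 2.45 FPKM in WT against 1.41 in KD, which did not pass with a pseudocount of 1 FPKM. The summed level was 64.2 FPKM for WT and 73.5 for KD in the mesenchyme list, and 28.3 FPKM for WT and 27.4 for KD in the outflow list. All 6 erythroid markers were measured and 0 passed, with a summed level of 11441 FPKM in WT against 11522 in KD. Of 5 neural crest markers 1 was measured, Ets1, which endothelial cells also express, and Foxd3 was listed at 0 in both groups. That list summed to 9.67 FPKM for WT and 10.8 for KD. Of 5 hepatic and yolk sac markers 0 were measured, with Alb and Fgb listed at 0 in both groups and a sum of 0.607 FPKM for WT and 1.37 for KD. The part of cell composition in the values of the jelly genes was not tested.

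**Figure D4:**
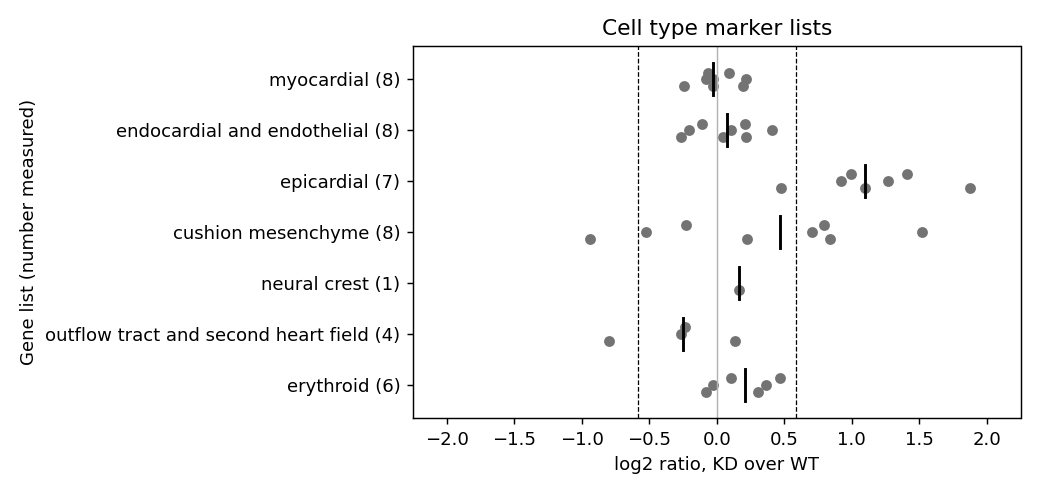
Log2 ratio of KD over WT for the measured genes of 7 cell type marker lists, 1 point per gene, with a vertical bar at the median of each list and dashed lines at 1.5-fold. All 7 epicardial points lie above 0, while the myocardial and endocardial points lie between the dashed lines.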

How the data were processed

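RNA-seq libraries were made by Smart-Seq2 from ventricles of 3 WT and 3 KD embryos and read single-end. Per the submitters' processing notes TopHat, Bowtie2 and Cuffdiff were used on mm10, with versions not given in the sources used here. The authors deposited 1 table that gives, for each gene, 1 FPKM value for WT and 1 for KD (named KO there) and 0 columns of single embryos. Its columns of the authors' own comparison (fold change, test statistic, p-value, q-value, call) were not used. Genes listed as having too many reads, 2 in all, were left out.

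From the FPKM values the plain ratio of KD over WT and its log2 were computed with no pseudocount, at a floor of 1 FPKM in either group. Genes named by rule were the 10 of the set and, per matrix list, those past 1.5-fold, the most abundant, and the highest and lowest ratio, with the proteoglycan and link protein pairs. Has3, Bgn, the other tenascins, the uncalled ADAMTS genes, Has2as and the marker genes named were chosen after their values were seen, and not every marker past 1.5-fold is named. The highest ratio of the hyaluronan breakdown list is not reported here. The genes and lists were chosen with earlier results of these data known. Table starts are given with 1 added. The functions were tested on simulated 2-fold changes with less scatter than the real ratios have, a check of the code and not of the calls. Alternatives were other fold marks, floors, pseudocounts and scalings. Python 3.11.15, NumPy 2.4.6, pandas 2.3.3 and Matplotlib 3.10.9 were used.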

Additional observations from a re-analysis of the deposited data

How the results depend on the processing

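No paired analysis was possible because each group has 1 value per gene in place of 1 per embryo, and fits without each embryo and with the replicate number as a block were not run for the same reason. With no spread between embryos, a log2 ratio was counted as moved when it shifted by over 0.1 and a count when it changed by over 1.5 times. The count of jelly genes past the fold mark, 1, was 4 (all lower in KD) at the lower of the alternative fold marks, where 9.44% of all measured genes were lower, 0 with a floor of 5 FPKM in either group and 0 with a floor of 1 FPKM in both groups, the last chosen after seeing the data. Both floors remove Tnc. Over all measured genes 2.41% passed at 2-fold, 21.8% at the lower fold mark, 21.1% with no floor, 2.92% with a floor of 5 FPKM, 5.01% with a floor of 1 FPKM in both groups and 3.18% with a pseudocount of 1. The count over the matrix lists, 9 of 69, was 3 of 69 at 2-fold, 26 of 69 at the lower fold mark, 31 of 100 with no floor, 4 of 49 with a floor of 5 FPKM, 5 of 62 with a floor of 1 FPKM in both groups and 2 of 69 with a pseudocount of 1. The count over the marker lists, 12 of 42, was 5 of 42 at 2-fold, 19 of 50 with no floor and 6 of 34 with a floor of 5 FPKM. The median log2 ratio of the jelly genes, -0.28, stayed between -0.34 and -0.23 without any 1 gene and was -0.19 with a floor of 1 FPKM in both groups. Of 36 recomputed ratios of single jelly genes 4 moved, all with a pseudocount: Has2 to -0.28, Adamts9 to -0.20 and Tnc to -0.65 with 1 FPKM, and Tnc to -1.43 with 0.1 FPKM. That 0 changed sign is no check of direction. A pseudocount added to both groups cannot change a sign. The scalings shifted the log2 ratio of every gene by the same amount, under 0.1. How precise the low values of Has2, Adamts9 and Tnc are is unknown, since no depth is given.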

Other observations

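Proteoglycans outside the jelly set were compared in the same way. Of 10 small leucine-rich proteoglycan genes 3 were measured, and Dcn, which encodes the collagen-binding proteoglycan decorin, had the highest ratio of all 12 matrix lists, with 2.15 FPKM in WT against 8.28 in KD, a log2 ratio of 1.95. Omd, which encodes osteomodulin and was the most abundant of that list in WT, had 9.12 FPKM in WT against 7.64 in KD. Bgn, the biglycan gene, was the most abundant of it in KD, with 7.82 FPKM in WT against 10.2 in KD, a log2 ratio of 0.38. Of 10 genes of cell surface heparan sulphate proteoglycans 9 were measured, 7 higher and 2 lower in KD, with a summed level of 135 FPKM in WT against 163 in KD. Sdc4, a syndecan of cell adhesions, passed 1.5-fold, with 9.32 FPKM in WT against 14.3 in KD, and did not pass with a pseudocount of 1 FPKM. The glypican gene Gpc3 was the most abundant, with 84.8 FPKM in WT against 102 in KD, and Gpc6 had the lowest ratio, with 1.61 FPKM in WT against 1.09 in KD. Gpc6 passed 1.5-fold on the lower side when FPKM values were rescaled to the same sum. All 3 basement membrane proteoglycan genes were measured and 0 passed 1.5-fold. Col18a1 had 64.1 FPKM in WT against 64.2 in KD, and Agrn, the agrin gene, had 6.53 FPKM in WT against 5.19 in KD.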
